A study of Mus musculus with 9 samples.

Results

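The respiratory chain genes described here are the protein-coding mouse genes for the subunits of complexes I to V of the inner mitochondrial membrane. They were chosen by symbol in the GENCODE annotation (mt-Nd, mt-Co, mt-Atp and mt-Cytb, Ndufa, Ndufb, Ndufc, Ndufs and Ndufv without the Ndufaf assembly factors, Uqcr, Cox4 to Cox8, Atp5, and Sdha to Sdhd). The rule gave 99 of the 55487 gene identifiers in the tables. Cyc1 (cytochrome c1 of complex III) does not have such a symbol and is not among them. Of these, 13 are encoded by mitochondrial DNA and 86 by nuclear chromosomes. The RNA came from naive CD4+ T cells (helper T cells that have not met antigen) from lymph nodes of wild-type (WT) C57BL6/J mice. Polyadenylated RNA was sequenced in 9 libraries, 3 per group. The groups were cells cultured for 20 h with recombinant interleukin-1 beta (IL-1b), an inflammatory cytokine, at 10 ng/mL (IL-1b-treated), cells cultured for 20 h without it (cultured), and freshly isolated cells with no treatment (fresh). Mouse age and sex and the number of animals behind each library are not in the labels. The p-values therefore measure the spread between libraries, which may be technical.

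The respiratory chain passes electrons from NADH (complex I) and succinate (complex II) through complex III to oxygen at complex IV and pumps protons, which drive ATP synthesis by complex V. Complexes I, III, IV and V are built from subunits of both genomes, whereas every subunit of complex II is nuclear. Naive T cells live mainly on oxidative phosphorylation, and the chain is known to be enlarged when T cells are activated.

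Library totals ranged from 13518818 to 23056660 counts, and 13043 genes passed the filter on low counts. Levels are given as CPM, counts relative to the TMM-scaled library total. Where genes are compared with each other they are given as TPM, which is divided by transcript length and not TMM-scaled. All 7 markers of CD4 T cells were detected, with summed levels of 3150 to 3220 TPM in IL-1b-treated, 3420 to 3480 TPM in cultured and 4180 to 4270 TPM in fresh libraries. The summed level of 6 B cell markers was 2.74 to 5.81 TPM in IL-1b-treated and 3.92 to 4.29 TPM in cultured libraries, against 38.9 to 52.1 TPM in fresh ones. The 4 NK markers summed to 5.0 to 6.53 TPM in IL-1b-treated, 6.77 to 8.36 TPM in cultured and 36.4 to 43.3 TPM in fresh libraries. The 5 neutrophil markers summed to 2.22 TPM or less in IL-1b-treated, 0.39 TPM or less in cultured and 9.7 to 30.7 TPM in fresh libraries. Other lists were higher after culture, the 2 CD8 T cell markers summing to 37.9 to 42.4 TPM in IL-1b-treated, 41.2 to 50.1 TPM in cultured and 23.8 to 25.6 TPM in fresh libraries. The 5 myeloid markers summed to 89.8 to 101 TPM in IL-1b-treated, 81.9 to 88.1 TPM in cultured and 66.5 to 79.0 TPM in fresh libraries, although 1 rose and 3 fell in cultured against fresh cells. None of these markers was at 0 in all libraries. The part of these other cells in the comparisons with fresh cells below was not tested, and in bulk RNA a change in the share of a cell type and a change in RNA per cell cannot be told apart.

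Part of the mitochondrial gene set has a second copy in the nuclear genome, on the minus strand of chromosome 1 (mm10), and the sequences are shown because reads from identical stretches fit both places. mt-Co3 (subunit 3 of complex IV, MT:8607-9390) and the pseudogene Gm28437 (chr1:24613189-24613971) are identical over 783 bases. mt-Atp6 (the proton channel subunit of complex V, MT:7927-8607) and Gm10925 (chr1:24613974-24614651) are identical over 678 bases. mt-Nd4l (a membrane subunit of complex I) and Gm10222 are identical over 294 bases, and mt-Co2 and Gm28661 over 681 bases. mt-Nd3 (another membrane subunit of complex I, MT:9459-9806) and Gm28438 (chr1:24612775-24613119) differ at 1 of 345 bases, T3C, counted from 1 at the first base of mt-Nd3. The first 120 bases of mt-Nd3 and of its copy are shown with that base in capitals, and the first 120 bases of mt-Co3, which are also the first 120 bases of Gm28437, below them (5′ to 3′, GENCODE M21 transcripts).
mt-Nd3 (MT:9459-9578, plus strand): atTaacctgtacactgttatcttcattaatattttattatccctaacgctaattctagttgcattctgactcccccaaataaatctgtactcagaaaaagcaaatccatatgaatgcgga
Gm28438 (chr1:24613000-24613119, minus strand): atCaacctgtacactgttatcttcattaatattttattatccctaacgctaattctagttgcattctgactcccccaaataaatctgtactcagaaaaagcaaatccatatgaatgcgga
mt-Co3 (MT:8607-8726, plus strand): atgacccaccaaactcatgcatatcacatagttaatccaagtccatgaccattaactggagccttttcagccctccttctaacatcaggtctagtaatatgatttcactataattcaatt

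The deposited expected counts divide such reads between the 2 genes, and they divided them differently from library to library. mt-Co3 alone had 1230, 1360 and 1460 CPM in IL-1b-treated libraries, 529, 655 and 544 CPM in cultured libraries and 765, 504 and 702 CPM in fresh libraries. The cultured and fresh libraries overlapped, and the difference was -0.19 ± 0.10 on the log2 scale (SE here and below for fold changes, edgeR quasi-likelihood test, Benjamini-Hochberg adjusted p = 0.0939), called lower without fresh replicate 2 (-0.35, adjusted p = 0.000225) or cultured replicate 2 (-0.29, adjusted p = 0.0204) and on the TPM scale (-0.44, adjusted p = 0.0236). Summed with Gm28437, the pair had 4180, 3960 and 3880 CPM in IL-1b-treated, 2450, 2520 and 2350 CPM in cultured and 1650, 1690 and 1730 CPM in fresh libraries. The 3 groups no longer overlapped. The cultured libraries lay above the fresh ones by 0.53 ± 0.03 on the log2 scale (adjusted p = 3.79e-14).

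mt-Nd3 alone had 93.6, 85.2 and 98.7 CPM in IL-1b-treated, 82.8, 57.6 and 62.1 CPM in cultured and 14.3, 30.2 and 8.93 CPM in fresh libraries, with the fresh replicates far apart. Summed with Gm28438 it had 306, 282 and 271 CPM in IL-1b-treated, 172, 187 and 166 CPM in cultured and 78.4, 79.0 and 78.8 CPM in fresh libraries. The replicates of each group then lay close together. The log2 fold change of the sum was 0.71 ± 0.05 for IL-1b-treated against cultured cells, where mt-Nd3 alone gave 0.46 ± 0.19 and no call (adjusted p = 0.0774), although it was called without fresh replicate 2 or 3 or cultured replicate 1 (0.46 to 0.63, adjusted p = 0.00389 to 0.0416). The sum differed by 1.15 ± 0.05 for cultured against fresh cells, where mt-Nd3 alone gave 1.92 ± 0.22.

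mt-Atp6 alone had 1740, 1120 and 770 CPM in IL-1b-treated, 524, 730 and 515 CPM in cultured and 551, 529 and 675 CPM in fresh libraries. Its share of the counts of the pair ran from 16.0 to 33.3% among the 3 IL-1b-treated libraries. The sum with Gm10925 was 5220, 4860 and 4820 CPM in IL-1b-treated, 3290, 3470 and 3210 CPM in cultured and 2440, 2530 and 2510 CPM in fresh libraries. The log2 fold change of the sum was 0.58 ± 0.03 for IL-1b-treated against cultured cells, against 1.04 ± 0.17 for mt-Atp6 alone. It was 0.42 ± 0.03 for cultured against fresh cells, against 0.01 ± 0.17 alone (adjusted p = 0.956). For mt-Nd4l the sum with Gm10222 differed by 0.35 ± 0.06 and 0.37 ± 0.06 in the same comparisons, against 0.69 ± 0.16 and 0.16 ± 0.16 for the gene alone, the second being called without fresh replicate 2 (0.44, adjusted p = 0.0157). Over all 9 libraries the copies Gm28661 of mt-Co2, Gm29216 of mt-Co1 and Gm28439 of mt-Nd4 held 1.17, 0.04 and 0.18% of the count of their mitochondrial gene. These shares are small beside those of the other copies, also for mt-Co2, whose copy is identical over its aligned length. They were uneven, as Gm28661 had 0, 124 and 127 CPM in fresh libraries and 0.124 CPM or less in cultured ones. In IL-1b-treated libraries it had 27.8, 19.7 and 0.067 CPM. Gm28439 had counts only in fresh libraries.

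**Figure D1:**
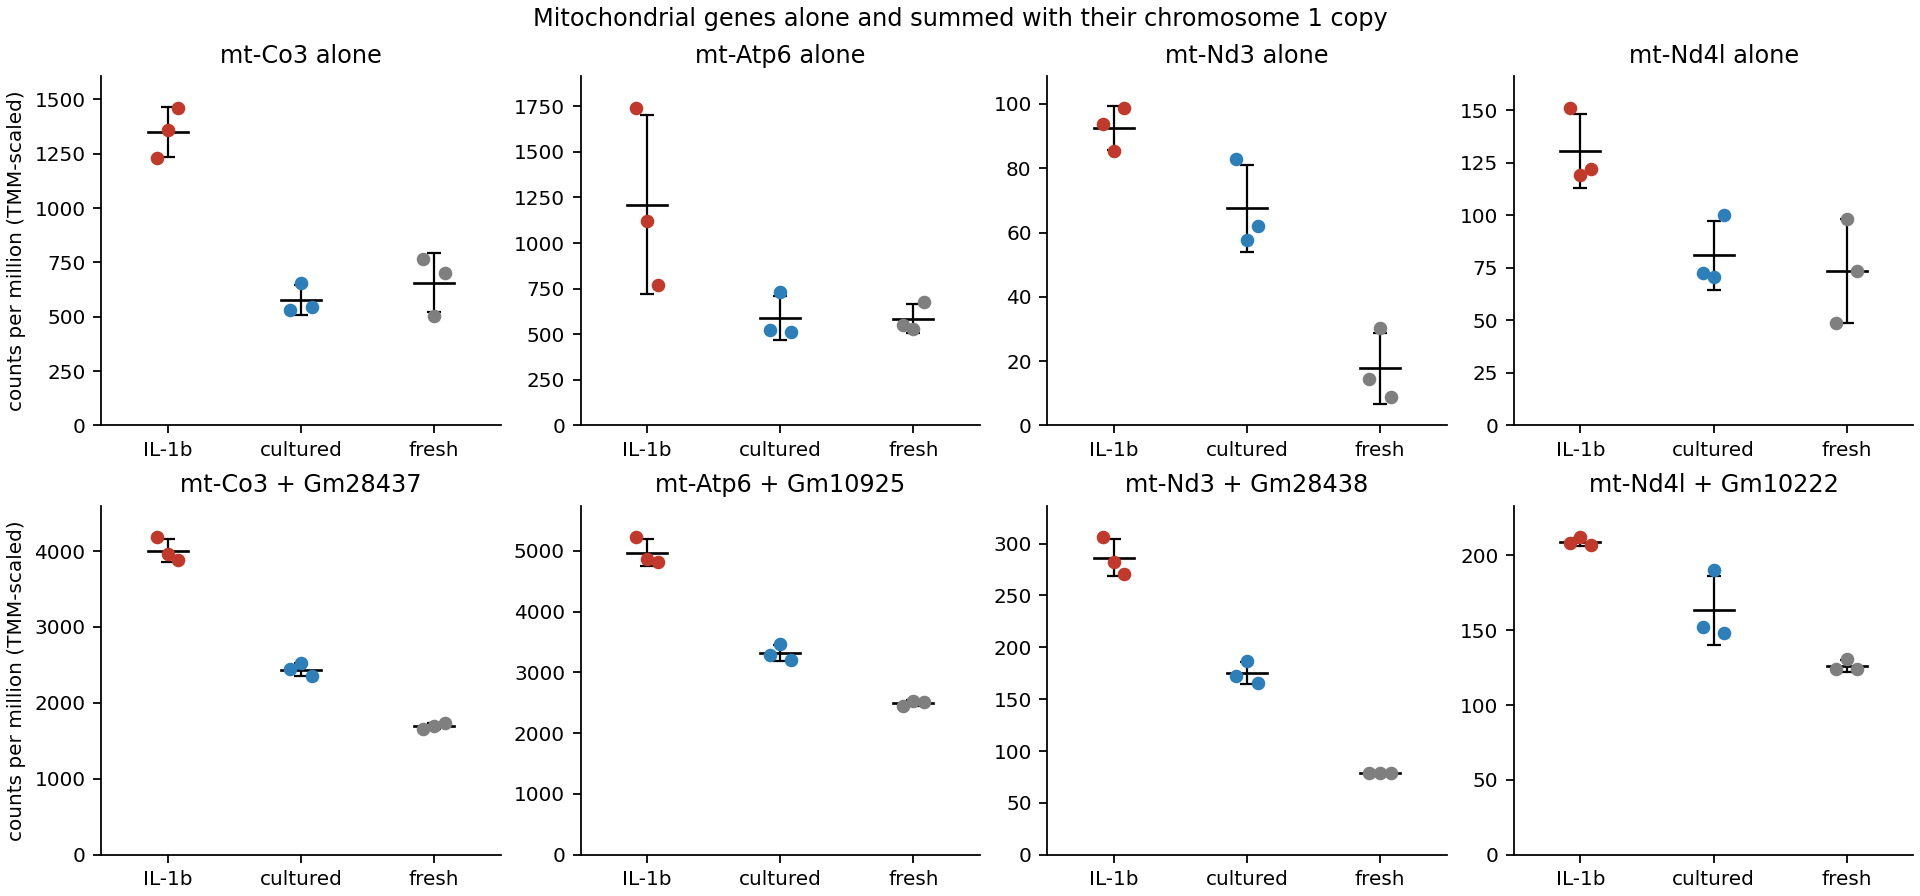
TMM-scaled CPM of mt-Co3, mt-Atp6, mt-Nd3 and mt-Nd4l alone (top) and summed with their chromosome 1 copies (bottom), for IL-1b-treated (IL-1b), cultured and fresh libraries; points are libraries, bars the mean and SD (n = 3 each). In the sums of mt-Co3, mt-Atp6 and mt-Nd3 the replicates lie close together and the IL-1b-treated libraries lie above the cultured ones and these above the fresh ones, whereas alone mt-Nd3 spreads from 8.93 to 30.2 among the fresh libraries.

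Messenger RNA of the mitochondrially encoded subunits was higher in IL-1b-treated cells than in cells cultured without the cytokine. Of 13 genes 12 rose and none fell, with a median log2 fold change of 0.46, where 15.6% of all 13043 genes were called higher and 13.3% lower and the median gene was at -0.01. With the copies added, 13 of 13 rose (15.7% of all genes higher under that setting) and the median was 0.38. mt-Co1, the catalytic subunit of complex IV, was the most counted of the 13, with 15000, 13900 and 14000 CPM in IL-1b-treated libraries against 9930, 10200 and 9600 CPM in cultured ones (0.53 ± 0.03, adjusted p = 3.31e-13). The groups did not overlap. mt-Cytb, the only mitochondrially encoded subunit of complex III, averaged 3220 ± 133 CPM in IL-1b-treated and 2490 ± 82.4 CPM in cultured cells (SD, n = 3 each; 0.37 ± 0.03). mt-Nd6, the only one of these messenger RNAs made from the light strand, averaged 536 ± 17.0 CPM in IL-1b-treated and 426 ± 8.21 CPM in cultured cells (0.33 ± 0.03). The libraries were selected for polyadenylated RNA and the strand setting of the counts is not given. The part of either in the level of mt-Nd6 was not tested.

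The split of calls depended on the scale. The TPM values, which were not TMM-scaled, put the median of all genes at -0.28 in this comparison (log2(TPM + 0.5), limma). On that scale 4 of 13 mitochondrial genes rose and none fell (2.22% of all genes higher, 34.3% lower). mt-Co1 stayed higher there (0.20, adjusted p = 0.00265), while mt-Nd4, mt-Nd5 and mt-Nd6 had -0.04, -0.02 and -0.01 and no call. After correction of each library for GC content and length (the corrected scale below), 10 of 13 rose and none fell (14.8% of all genes higher, 4.58% lower).

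Cultured cells likewise had more of the mitochondrial messenger RNAs than fresh cells. Of 13 genes 10 rose and none fell, with a median of 0.40, where 29.4% of all genes were called higher and 28.9% lower. With the copies added, all 13 rose (29.5% of all genes higher under that setting) and the median was 0.47. mt-Nd6 averaged 426 ± 8.21 CPM in cultured and 274 ± 1.96 CPM in fresh cells (SD, n = 3 each; 0.64 ± 0.03, adjusted p = 5.55e-14). mt-Nd5, another proton-pumping subunit of complex I, had 2050, 2140 and 1990 CPM in cultured against 1360, 1390 and 1370 CPM in fresh libraries (0.59 ± 0.03). mt-Co2, which takes electrons from cytochrome c, moved least of the 10, with 2590, 2670 and 2430 CPM in cultured against 2250, 2280 and 2240 CPM in fresh libraries (0.18 ± 0.04, adjusted p = 0.000124), and its sign turned on the TPM scale (-0.09) and the corrected scale (-0.38, adjusted p = 5.06e-11). Summed with its copies, mt-Co2 lay closer, with 2590, 2670 and 2430 CPM in cultured against 2250, 2410 and 2360 CPM in fresh libraries. On the corrected scale 5 of the 13 genes were higher and 5 lower, with a median of -0.01 (29.4% of all genes higher, 25.0% lower). On the TPM scale 7 were higher and 1 lower (14.4% and 36.7% of all genes). The rise of mitochondrial messages in culture was thus seen on the count and TPM scales and not on the corrected one. That scale was fitted without the copies added. Its lower calls included mt-Atp6 (-0.53), whose reads are divided with a copy, and mt-Atp8 (-0.67), with a mean effective length of 13.17 bases. They also included mt-Co2 and mt-Nd2 (-0.08). A corrected fit with the copies added was not run. The ribosomal RNAs of the mitochondrion did not move together in this comparison, mt-Rnr1 being higher (0.57 ± 0.05, adjusted p = 2.65e-10) and mt-Rnr2 lower (-0.22 ± 0.04, adjusted p = 1.54e-05). The part of the selection of polyadenylated RNA in the levels of both and of mt-Nd6 was not tested.

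Between IL-1b-treated and fresh cells 13 of 13 mitochondrial genes rose with a median of 0.93 (32.9% of all genes higher, 32.6% lower). In TPM 9 rose and 0 fell with a median of 0.32 (11.8% of all genes higher, 54.5% lower). On the corrected scale 9 rose and 1 fell with a median of 0.24 (34.7% higher, 26.3% lower). This comparison shares its fresh libraries with the one before and its IL-1b-treated libraries with the first. The 13 genes together made up 3.09 ± 0.162% of each IL-1b-treated library's total, 2.40 ± 0.0874% of the total of cultured libraries and 1.92 ± 0.0241% of that of fresh ones (SD, n = 3 each). The chromosome 1 copies made up a further 0.629 ± 0.00365, 0.486 ± 0.0119 and 0.331 ± 0.027% in the same order of groups. Among mitochondrial genes with an effective length that supports a level, mt-Co1 had the highest deposited TPM. It had 11400 ± 531 TPM in IL-1b-treated, 9940 ± 328 TPM in cultured and 8890 ± 210 TPM in fresh cells. The deposited TPM of mt-Atp6 leaves out the reads given to Gm10925, whose count was 350.13% of that of mt-Atp6. The place of mt-Co1 above mt-Atp6 is therefore not settled. The TPM of mt-Atp8 was about as high as that of mt-Co1 but rests on an effective length of 10.24 to 15.61 bases.

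The nuclear-encoded subunits rose as well in IL-1b-treated against cultured cells. Of 86 genes 78 passed the filter, and 62 of these rose and none fell, with a median log2 fold change of 0.46 (15.6% of all genes higher, 13.3% lower, median -0.01). By complex, 30 of 37 tested genes of complex I rose, 2 of 4 of complex II, 7 of 8 of complex III, 10 of 12 of complex IV and 13 of 17 of complex V, and the medians were 0.45, 0.23, 0.59, 0.50 and 0.42. In cultured against fresh cells 59 rose and 3 fell with a median of 0.54 (29.4% of all genes higher, 28.9% lower), and in IL-1b-treated against fresh cells 69 rose and 2 fell with a median of 1.00 (32.9% higher, 32.6% lower). Of the 78 genes, 54 were higher in all 3 comparisons and 5 (Ndufa8, Ndufab1, Ndufs3, Atp5d and Atp5s) were called in none, these 5 being named after their values were seen. The 3 comparisons share libraries, and the shares of all genes with such joint calls were not computed, so these 2 counts are a description only. Together the nuclear genes made up 0.724 ± 0.00314% of the total of IL-1b-treated libraries, 0.608 ± 0.00287% of that of cultured ones and 0.486 ± 0.00417% of that of fresh ones.

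**Figure D2:**
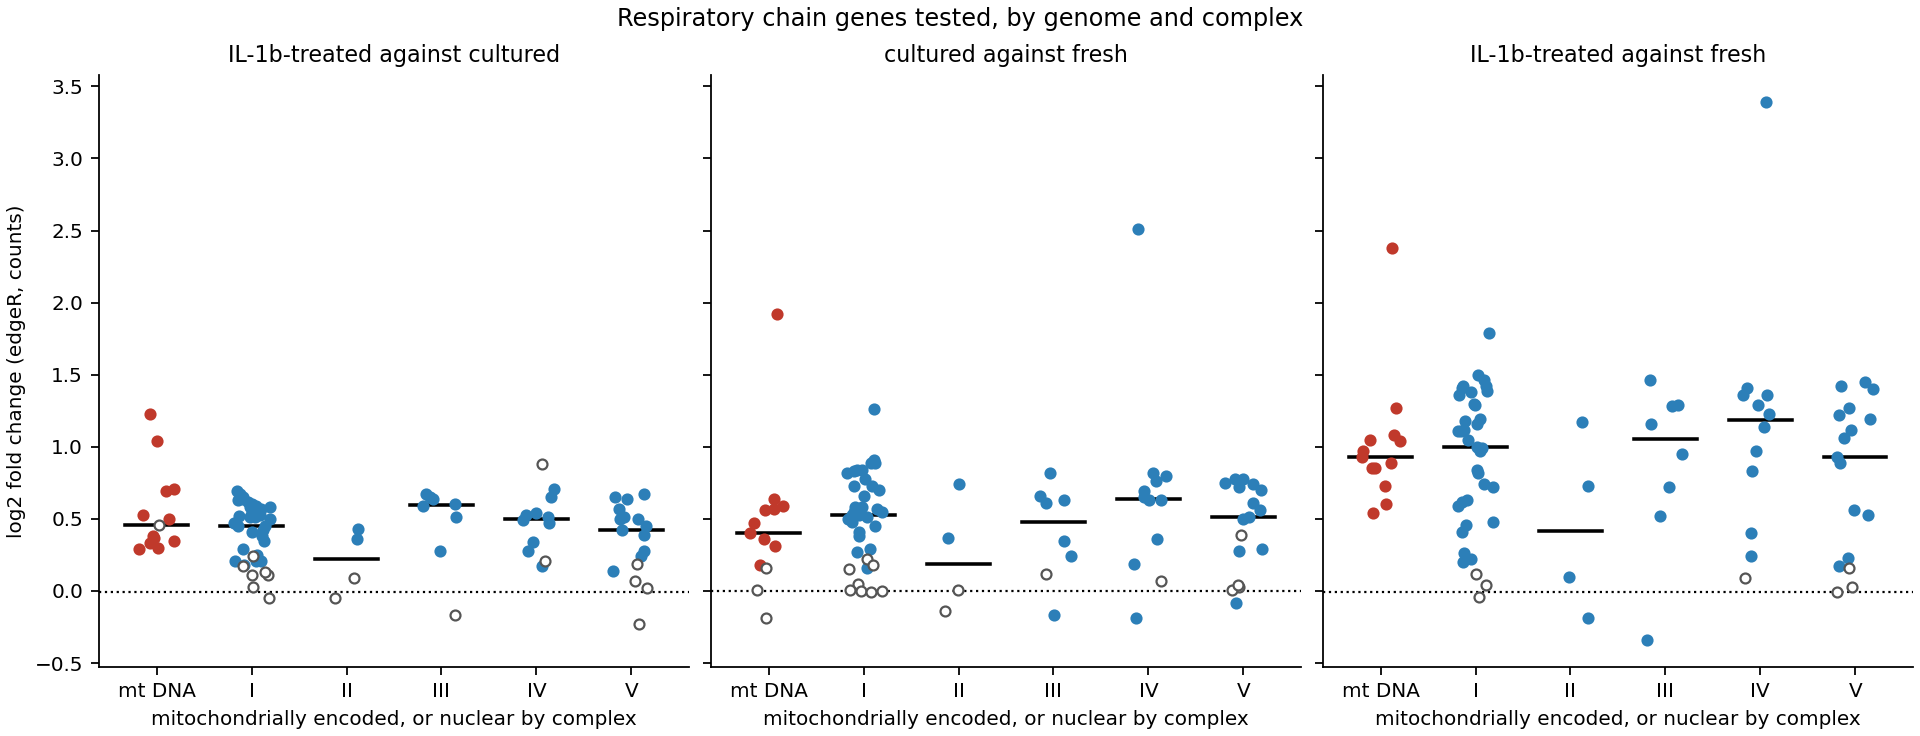
Log2 fold changes (edgeR, counts) of the tested respiratory chain genes in each comparison, for the 13 mitochondrially encoded genes (mt DNA) and the nuclear ones by complex; filled points passed an adjusted p of 0.05, open points did not, bars are medians, and the dotted line is the median of all genes tested. Nearly all points lie above that line, with medians of 0.46, 0.54 and 1.00 for the nuclear genes. The highest point of complex IV against fresh cells is Cox6b2, which has few counts. On the TPM scale 10, 7 and 17 of the 78 nuclear genes were called lower, where 34.3, 36.7 and 54.5% of all genes were.

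On the TPM scale fewer nuclear genes were called higher, and some were lower. There 28 rose and 10 fell in IL-1b-treated against cultured cells (2.22% of all genes higher, 34.3% lower), 40 rose and 7 fell in cultured against fresh cells (14.4% and 36.7%), and 49 rose and 17 fell in IL-1b-treated against fresh cells (11.8% and 54.5%). The medians of the members, 0.14, 0.30 and 0.48, lay above those of all genes, -0.28, -0.21 and -0.50, by 0.42, 0.51 and 0.98, close to the distances of 0.47, 0.54 and 1.01 on the count scale. On the corrected scale the medians were 0.25, 0.29 and 0.52 and those of all genes 0.04, 0.03 and 0.06. There 46 nuclear genes were higher and 0 lower with IL-1b against cultured cells (14.8% of all genes higher, 4.58% lower). In cultured against fresh cells 47 were higher and 7 lower (29.4% and 25.0%). In IL-1b-treated against fresh cells 60 were higher and 8 lower (34.7% of all genes higher, 26.3% lower). The direction of the median member thus held on all 3 scales, while its distance from the median gene was smaller on the corrected one.

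The replicate values of most members did not overlap between groups. With IL-1b against cultured cells, 62 nuclear genes had all 3 CPM values above and 0 below (21.1% and 19.1% of all genes), and in TPM 34 above and 12 below (3.76% and 45.0%). In cultured against fresh cells the counts were 60 above and 3 below in CPM (32.7% and 32.8%) and 41 above and 11 below in TPM (17.3% and 43.1%). In IL-1b-treated against fresh cells they were 69 above and 2 below in CPM (34.0% and 34.1%) and 50 above and 18 below in TPM (12.6% and 56.4%).

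Complex I, the NADH dehydrogenase, had a lower median for core than for accessory subunits on the count scale. Of the 7 nuclear core subunits, which carry the flavin and the iron-sulfur clusters, 6 rose in IL-1b-treated against fresh cells with a median of 0.48, and of 30 tested accessory subunits 28 rose with a median of 1.08, where 32.9% of all genes were higher. The medians were 0.47 and 0.56, close to each other, on the corrected scale. Ndufs1, the largest core subunit, had 113, 106 and 107 CPM in IL-1b-treated, 91.3, 101 and 89.4 CPM in cultured and 77.3, 75.1 and 81.7 CPM in fresh libraries. The groups did not overlap, with log2 fold changes of 0.21 ± 0.06 for IL-1b-treated against cultured and 0.27 ± 0.06 for cultured against fresh cells, but on the TPM scale both were -0.08 and not called. Ndufv1, which binds NADH, had 69.6, 68.9 and 70.4 CPM in IL-1b-treated, 61.1, 60.1 and 60.0 CPM in cultured and 64.4, 61.5 and 55.5 CPM in fresh libraries. It was higher in IL-1b-treated than in cultured cells (0.21 ± 0.06, adjusted p = 0.0153) but had -0.17 on the TPM scale, and cultured and fresh libraries overlapped (-0.01 ± 0.06, adjusted p = 0.943). Against fresh cells the rise in IL-1b-treated cells (0.20 ± 0.06, adjusted p = 0.00707) was lost without fresh replicate 3 (0.15, adjusted p = 0.0527) and was a fall on the TPM scale (-0.43, adjusted p = 0.00435).

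Among the accessory subunits of complex I, Ndufa6 (chr15:82350140-82354322), a member of the LYR family, rose most. It had 134, 136 and 135 CPM in IL-1b-treated, 85.5, 97.3 and 97.1 CPM in cultured and 39.6, 38.5 and 38.7 CPM in fresh libraries. Each group lay apart from the next, by 0.53 ± 0.05 between IL-1b-treated and cultured cells (adjusted p = 9.49e-08) and by 1.26 ± 0.06 between cultured and fresh cells (adjusted p = 1.52e-14), and both calls held on the TPM scale (0.22 and 0.99). Ndufb4, a membrane-arm subunit, had the largest rise with the cytokine among nuclear complex I genes counted alone, at 41.9, 35.2 and 34.3 CPM in IL-1b-treated against 23.3, 22.4 and 23.4 CPM in cultured libraries (0.69 ± 0.11). Its near-copy Ndufb4c, an annotated pseudogene, held 31.63% of the count of Ndufb4, and the sum of both gave 0.59 ± 0.09, below Ndufa2 at 0.67. Ndufb4 alone was not called in TPM (0.36, adjusted p = 0.0768). Ndufa4, counted with complex I by its symbol and now placed in complex IV, averaged 93.5 ± 4.0 CPM in IL-1b-treated, 62.8 ± 3.44 CPM in cultured and 35.5 ± 2.63 CPM in fresh cells (SD, n = 3 each), while its paralogue Ndufa4l2, known as a hypoxia-induced gene, had 4 counts in all cultured libraries together and 0 in the others. Ndufab1, the mitochondrial acyl carrier protein, averaged 26.8 ± 0.856 CPM in IL-1b-treated and 26.2 ± 1.55 CPM in cultured cells (0.03 ± 0.09, adjusted p = 0.832).

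Complex II, the succinate dehydrogenase shared with the citric acid cycle, had the lowest median of the 5 complexes in each comparison. Sdha, its flavoprotein, had 267, 261 and 271 CPM in IL-1b-treated, 263, 247 and 243 CPM in cultured and 245, 256 and 247 CPM in fresh libraries. The IL-1b-treated and cultured libraries overlapped (0.09 ± 0.04, adjusted p = 0.0787), and without cultured replicate 1 the difference was called (0.12, adjusted p = 0.0314). Against fresh cells the IL-1b-treated libraries were higher by 0.10 ± 0.04 (adjusted p = 0.0233). That call was lost without fresh replicate 1 or 3 or IL-1b-treated replicate 3 (0.08 to 0.09, adjusted p = 0.0585 to 0.0915), and its sign turned under scaling by library size (-0.07) and in TPM (-0.39, adjusted p = 0.000346). Sdhb, the iron-sulfur subunit, rose by 0.36 ± 0.07 in IL-1b-treated against cultured and by 0.37 ± 0.07 in cultured against fresh cells, with 0.04 and 0.11 and no call on the TPM scale.

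The 2 membrane anchors of complex II, which hold it in the membrane and bind its heme, differed in direction. Sdhd (chr9:50596357-50603812) had 80.3, 73.4 and 75.7 CPM in IL-1b-treated, 58.3, 56.3 and 56.2 CPM in cultured and 38.5, 29.4 and 33.8 CPM in fresh libraries. The groups did not overlap (0.43 ± 0.08 and 0.74 ± 0.08 in the comparisons of IL-1b-treated with cultured and of cultured with fresh cells). Sdhc (chr1:171127165-171150603) had 36.9, 33.1 and 38.9 CPM in IL-1b-treated, 37.9, 36.9 and 37.9 CPM in cultured and 44.4, 39.3 and 40.5 CPM in fresh libraries. All IL-1b-treated and cultured values of Sdhc lay below all fresh ones, and the fall against fresh cells was called for IL-1b-treated cells (-0.19 ± 0.08, adjusted p = 0.0401; -0.74, adjusted p = 0.0048 on the TPM scale) but not for cultured cells (-0.14 ± 0.08, adjusted p = 0.133). The call at -0.19 was lost when any library other than fresh replicate 2, fresh replicate 3 or IL-1b-treated replicate 3 was left out (-0.13 to -0.20, adjusted p = 0.057 to 0.199). In TPM the IL-1b-treated libraries had 31.7, 21.9 and 39.8 for Sdhc, at uneven effective lengths of 1237, 1608 and 1038 bases. Fresh libraries had 57.5, 48.5 and 47.0 TPM at 1200, 1265 and 1339 bases. The part of length in the TPM fall was not tested.

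Complex III, the cytochrome bc1 complex, held a pair of partners that moved apart. Uqcrc1 and Uqcrc2 are its core proteins, which sit side by side on the matrix face. Uqcrc2 (chr7:120635176-120659524) had 240, 227 and 224 CPM in IL-1b-treated, 161, 166 and 159 CPM in cultured and 107, 99.0 and 102 CPM in fresh libraries. It rose by 0.51 ± 0.04 with IL-1b (adjusted p = 4.53e-09) and by 0.66 ± 0.04 in culture (adjusted p = 9.51e-12). Uqcrc1 (chr9:108936633-108949623) had 86.5, 105 and 97.4 CPM in IL-1b-treated, 103, 104 and 117 CPM in cultured and 127, 124 and 114 CPM in fresh libraries. The IL-1b-treated libraries lay below all fresh ones, overlapping the cultured ones, and Uqcrc1 fell by 0.34 on the log2 scale in IL-1b-treated against fresh cells (SE 0.06, adjusted p = 6.36e-05).

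The fall of Uqcrc1 in cultured against fresh cells was smaller (-0.17 ± 0.06, adjusted p = 0.0237) and was not called without fresh replicate 1 or 2 or cultured replicate 1 or 2 (-0.14 to -0.16, adjusted p = 0.076 to 0.12). In IL-1b-treated against cultured cells it was -0.17 ± 0.06 and not called (adjusted p = 0.0542), and without IL-1b-treated replicate 2 it was (-0.23, adjusted p = 0.0158). Both partners kept their signs on the count, TPM and corrected scales. On the TPM scale Uqcrc1 fell in all 3 comparisons (-0.43, -0.39 and -0.82) and Uqcrc2 rose in all 3 (0.21, 0.41 and 0.62). Their mean effective lengths were 1139 and 1579 bases, and Uqcrc1 averaged 92.2 ± 4.73 TPM and Uqcrc2 156 ± 3.32 TPM in IL-1b-treated cells, against 164 ± 14.0 and 101 ± 5.46 TPM in fresh cells, the levels standing in the other order.

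Every other complex III gene among the members, which leave out Cyc1, rose with IL-1b on the count scale. So did all of these but Uqcrq in culture (0.12, adjusted p = 0.235). The Rieske protein Uqcrfs1, which carries the iron-sulfur cluster, rose by 0.28 ± 0.06 with IL-1b and by 0.24 ± 0.06 in culture, with -0.05 and -0.01 and no call on the TPM scale. Uqcrh, the hinge protein by which cytochrome c1 binds cytochrome c, had 241, 236 and 230 CPM in IL-1b-treated, 141, 164 and 146 CPM in cultured and 89.6, 90.5 and 75.5 CPM in fresh libraries (0.64 ± 0.06 and 0.82 ± 0.06; 0.31 and 0.53 on the TPM scale, called in both). The groups did not overlap. Uqcr11, the smallest subunit, rose most with the cytokine, with 31.3 ± 2.67 CPM in IL-1b-treated and 19.6 ± 1.83 CPM in cultured cells (SD, n = 3 each; 0.67 ± 0.13), but was not called on the TPM scale (0.34, adjusted p = 0.0796).

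**Figure D3:**
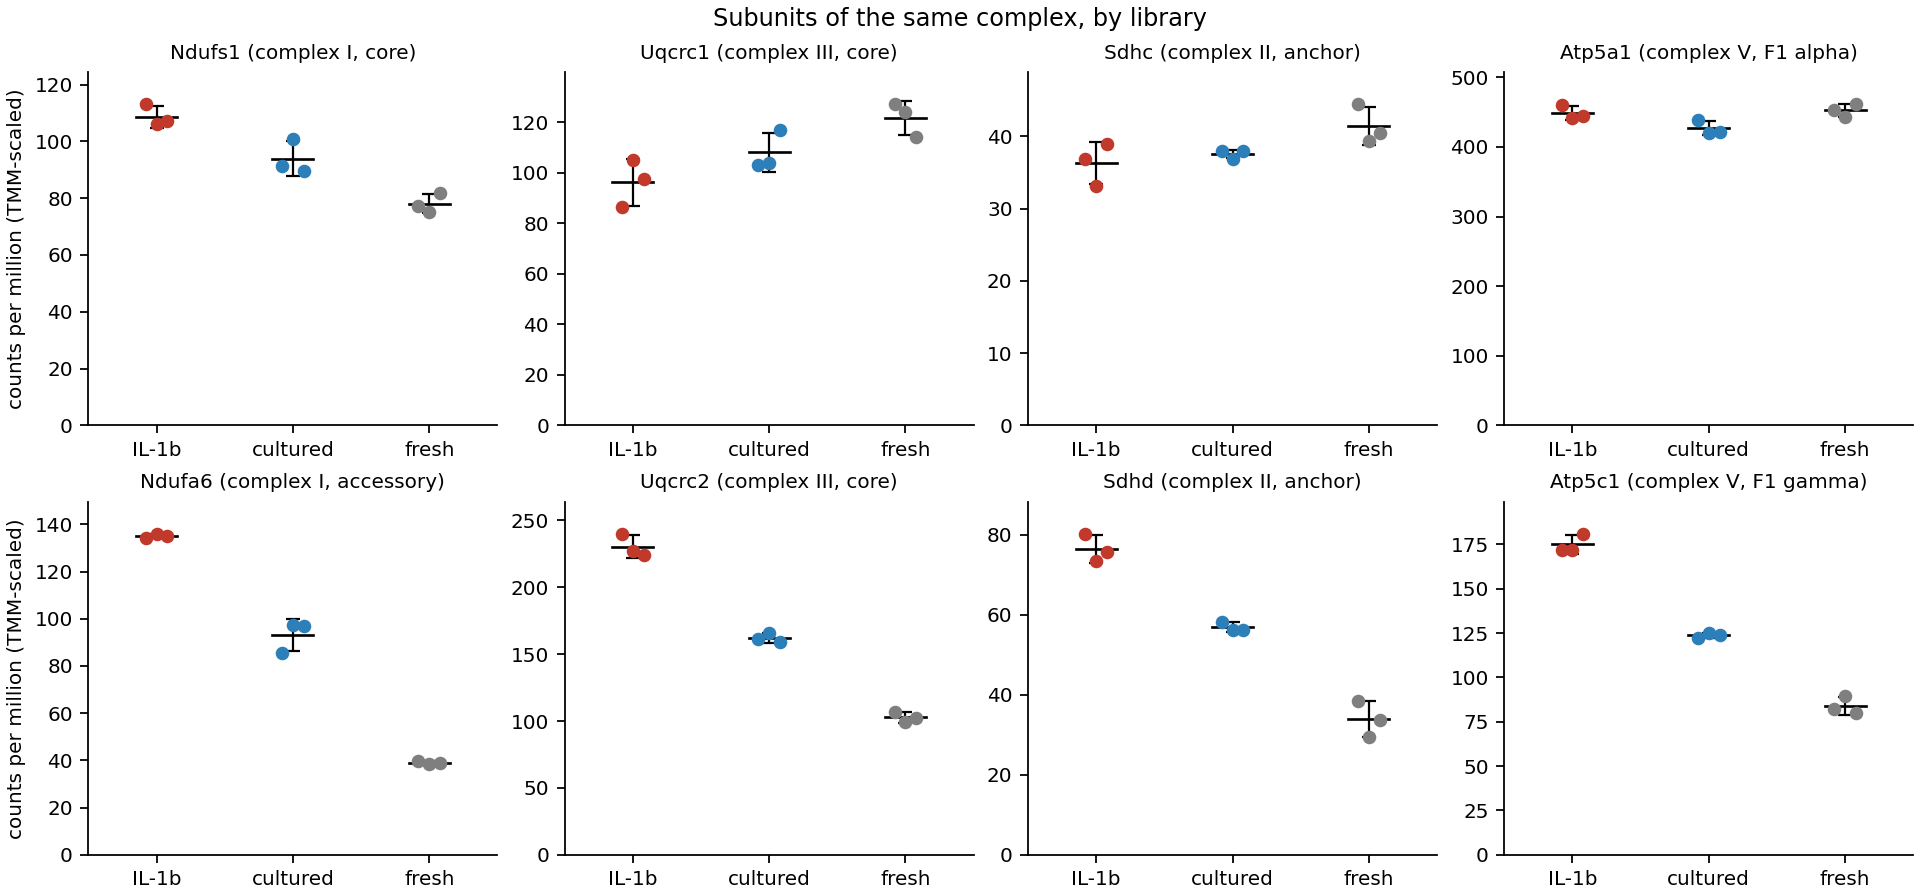
TMM-scaled CPM of paired subunits of complexes I, III, II and V in IL-1b-treated (IL-1b), cultured and fresh libraries, with the axes starting at 0; points are libraries, bars the mean and SD (n = 3 each). Uqcrc2, Sdhd, Atp5c1 and Ndufa6 step down across the 3 groups, while Uqcrc1 and Sdhc are highest in fresh libraries and Atp5a1 lies between 420 and 461 in all 9.

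In complex IV, cytochrome c oxidase, the nuclear subunits occur as paralogues with tissue-restricted forms, and these T cells used the general ones. Cox4i1, Cox6a1, Cox6b1, Cox7a2, Cox7a2l and Cox8a averaged 471, 182, 260, 147, 892 and 289 TPM in IL-1b-treated cells. Of the paralogues known from muscle, lung or testis, Cox4i2, Cox7b2, Cox8b and Cox8c had 0 counts in all 9 libraries, and Cox6a2 and Cox7a1 had at most 2 counts in a group. A count of 0 in a library allows up to 0.13 to 0.222 CPM (3 counts), counting error only. Cox6b2, known from testis, was the exception, with 28, 11 and 17 counts in the IL-1b-treated libraries. It had 17, 8 and 6 counts in cultured and 2, 4 and 0 in fresh libraries, so both cultured groups lay above the fresh one. Its fitted log2 fold changes against fresh cells, 3.39 ± 0.79 for IL-1b-treated (adjusted p = 0.000685) and 2.51 ± 0.83 for cultured cells (adjusted p = 0.0124), rest on 6 fresh counts, and the second was lost without fresh replicate 1 or 3 or cultured replicate 1 (1.93 to 2.31, adjusted p = 0.0537 to 0.102).

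Cox7a2l (chr17:83501918-83517330), also called SCAF1, is the Cox7a paralogue that joins complexes III and IV into supercomplexes. It had 718, 712 and 733 CPM in IL-1b-treated, 507, 511 and 520 CPM in cultured and 294, 291 and 297 CPM in fresh libraries. The replicates of each group lay close together and apart from the next (0.49 ± 0.03, adjusted p = 4.73e-12, and 0.80 ± 0.03, adjusted p = 1.22e-16; 0.16 and 0.55 on the TPM scale, called in both). In TPM it ranked first among all nuclear members in IL-1b-treated and cultured cells (892 ± 13.1 and 796 ± 8.5) and was below Atp5b and Cox4i1 in fresh cells (543 ± 7.2). C57BL6/J mice are known to carry a shortened Cox7a2l protein, which gene counts do not show. Its paralogue Cox7a2 rose most in complex IV with IL-1b, with 61.5, 57.3 and 63.6 CPM in IL-1b-treated against 39.0, 36.1 and 36.1 CPM in cultured libraries (0.71 ± 0.08).

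Cox4i1, the largest nuclear subunit and the site where ATP slows the enzyme, had 233, 227 and 230 CPM in IL-1b-treated against 200, 200 and 212 CPM in cultured libraries. It was called higher on the count scale (0.17 ± 0.04, adjusted p = 0.00105) and lower on the TPM scale (-0.17, adjusted p = 0.00659), so its direction depended on the scale. Cox5a, which sits on the matrix side, was not called with IL-1b (0.21 ± 0.08, adjusted p = 0.0522), although without fresh replicate 2 or 3 it was (adjusted p = 0.0487 and 0.0491). It was called higher in culture against fresh cells (0.19 ± 0.08, adjusted p = 0.0408). That call was lost without fresh replicate 2 or 3 or any cultured replicate (0.16 to 0.21, adjusted p = 0.0628 to 0.118), and its sign turned on the TPM scale (-0.02) and the corrected scale (-0.26, adjusted p = 0.00816). Cox6c rose by 0.51 ± 0.05 and 0.63 ± 0.06 in the 2 culture steps and was called higher on the TPM scale too (0.25 and 0.51).

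Cox6a1 (chr5:115345642-115348981), a regulatory subunit, was called in opposite directions in the 2 steps, the 1 tested nuclear member of which this was true. It had 57.0, 64.7 and 61.5 CPM in IL-1b-treated, 54.7, 47.6 and 48.8 CPM in cultured and 58.3, 55.3 and 58.6 CPM in fresh libraries. The cultured libraries were the lowest, below all of both other groups, with 0.28 ± 0.07 for IL-1b-treated against cultured (adjusted p = 0.00409) and -0.19 ± 0.07 for cultured against fresh cells (adjusted p = 0.0226). The fall in culture was lost without fresh replicate 1 or 3 or cultured replicate 2 or 3 (-0.15 to -0.18, adjusted p = 0.0651 to 0.127), and the rise with IL-1b was -0.06 and not called on the TPM scale, where the fall against fresh cells was -0.47 (adjusted p = 0.000329).

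In complex V, the ATP synthase, the medians differed by position, while members of different positions overlapped. In IL-1b-treated against fresh cells the 5 tested subunits of the catalytic F1 head and its stalk had a median log2 fold change of 0.17, the 3 genes of the c ring 0.53, the 4 tested genes of the peripheral stalk 1.16 and the 4 small membrane subunits 1.41. The F1 values ran from -0.01 for Atp5a1 to 1.06 for Atp5c1, above every c ring gene, and the differences between positions were not tested. Atp5a1, the alpha subunit, had 460, 442 and 444 CPM in IL-1b-treated, 439, 420 and 422 CPM in cultured and 453, 443 and 461 CPM in fresh libraries. The IL-1b-treated libraries overlapped the fresh ones (-0.01 ± 0.03, adjusted p = 0.749). On the TPM scale it was lower (-0.60, adjusted p = 1.4e-06) and on the corrected scale higher (0.13, adjusted p = 0.000413). Its fall in cultured against fresh cells was small (-0.08 ± 0.03, adjusted p = 0.0263) and was lost without fresh replicate 1 or 3 or cultured replicate 2 or 3 (-0.07 to -0.08, adjusted p = 0.0635 to 0.106). Atp5b, the beta subunit that makes ATP, had 551, 579 and 560 CPM in IL-1b-treated, 514, 502 and 515 CPM in cultured and 499, 492 and 514 CPM in fresh libraries. It was called higher with IL-1b (0.14 ± 0.03, adjusted p = 0.000827), with -0.19 and no call on the TPM scale (adjusted p = 0.0525).

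Atp5c1, the gamma subunit that turns inside the head, moved unlike alpha and beta. It had 172, 172 and 181 CPM in IL-1b-treated, 122, 125 and 124 CPM in cultured and 82.1, 89.8 and 80.1 CPM in fresh libraries. The groups did not overlap (0.50 ± 0.05, adjusted p = 3.33e-08, and 0.56 ± 0.05, adjusted p = 1.11e-09; 0.16 and 0.31 on the TPM scale, called in both). Atp5g1, Atp5g2 and Atp5g3 encode the same mature c subunit with different targeting sequences. In TPM the order in IL-1b-treated cells was Atp5g2 at 316 ± 7.48, Atp5g3 at 225 ± 9.92 and Atp5g1 at 75.6 ± 2.77, beyond their spread. In fresh cells Atp5g2 at 251 ± 18.2 and Atp5g3 at 235 ± 6.66 did not differ beyond it, with Atp5g1 at 88.6 ± 6.37 below both. Atp5g2 rose by 0.42 ± 0.05 with IL-1b and by 0.51 ± 0.06 in culture, with 0.09 and no call for the first on the TPM scale. Atp5g1 was called higher in IL-1b-treated than in fresh cells (0.23 ± 0.08, adjusted p = 0.0158), but not without fresh replicate 1 (0.21, adjusted p = 0.0541), and was lower on the TPM scale (-0.23, adjusted p = 0.00796). Among the small membrane subunits Atp5k, found where synthase dimers meet, had 24.7, 25.3 and 29.0 CPM in IL-1b-treated, 14.1, 18.2 and 17.2 CPM in cultured and 11.0, 8.13 and 9.49 CPM in fresh libraries (0.67 ± 0.13 and 0.78 ± 0.13). Atp5mpl had 54.3, 47.7 and 57.2 CPM in IL-1b-treated, 30.0, 35.9 and 36.5 CPM in cultured and 20.2, 19.2 and 20.2 CPM in fresh libraries (0.64 ± 0.09 and 0.78 ± 0.10). Both were called higher on the TPM scale too.

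The medians by position go along with transcript length. The median effective length of the 78 tested nuclear genes was 490.6 bases, from 147.1 to 2258, against 2037 bases for all genes tested, and 76 of the 78 were shorter than the median gene. Across these 78 genes, which share their libraries and are not independent, the log2 fold change and the length had a Spearman rank correlation of -0.52 for IL-1b-treated against cultured, -0.41 for cultured against fresh and -0.49 for IL-1b-treated against fresh cells. Across all genes it was -0.37, -0.18 and -0.28. On the corrected scale the rank correlation was -0.25, -0.33 and -0.31 across the members and -0.08, -0.03 and -0.04 across all genes. Under that setting the medians for IL-1b-treated against fresh cells were 0.47 for the core and 0.56 for the accessory subunits of complex I, 0.24 for the core and Rieske and 0.85 for the small subunits of complex III, and 0.13 for F1 and 0.94 for the small membrane subunits of complex V. The distance within complex I was thus smaller than on the count scale, while complexes III and V kept a wide one. The part of length in the differences was not tested further.

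**Figure D4:**
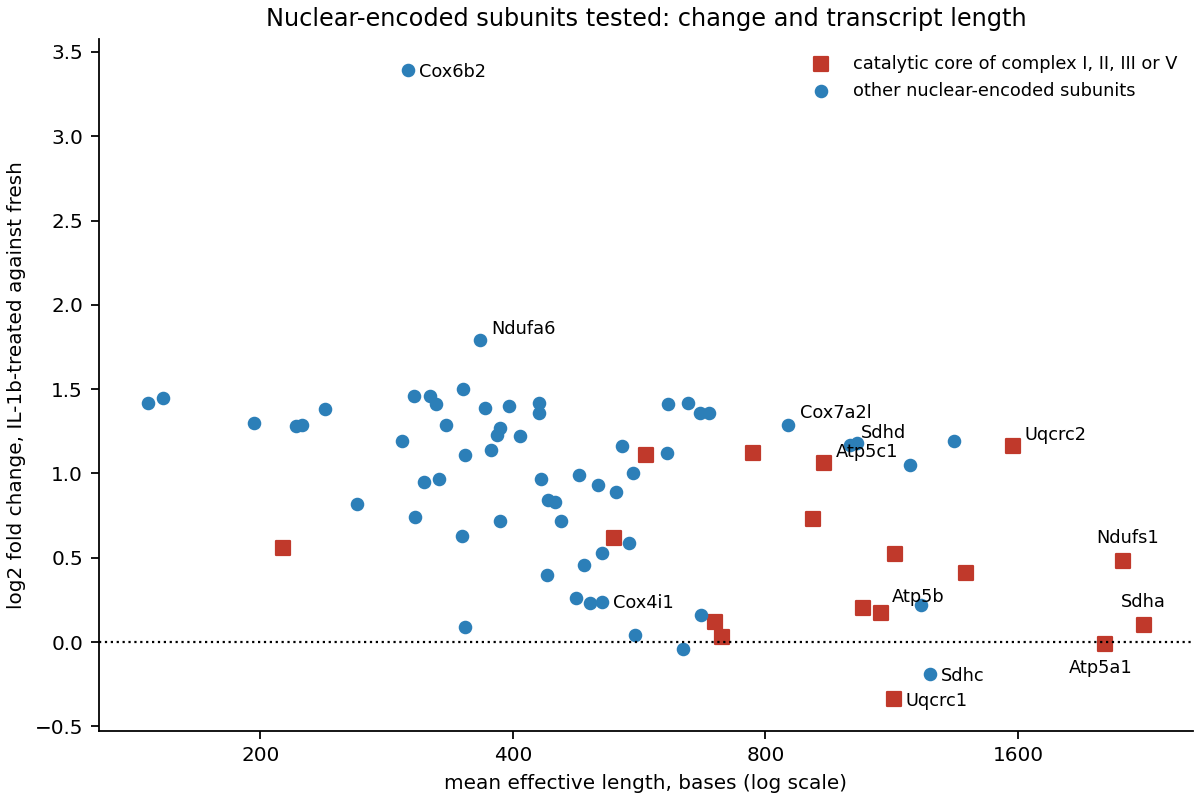
Log2 fold change between IL-1b-treated and fresh cells (edgeR, counts) of the 78 tested nuclear-encoded subunits against their mean effective length in bases on a log axis; squares are the catalytic core subunits of complexes I, II, III and V, circles the other subunits. The rank correlation is -0.49, and Uqcrc2, Sdhd and Atp5c1 lie at 1.16, 1.17 and 1.06 while Uqcrc1, Sdhc and Atp5a1 lie below 0.

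Known motifs of respiratory gene promoters were looked for in RefSeq promoter windows (GRCm38.p6, 250 bases before to 50 after the start), which could be matched for 69 nuclear members by gene ID. On either strand, the palindromic NRF1 motif (the longer run of capitals in the Cox6a1 window below) was in the window of 5 members, or 7.25%, against 1.07% of the 27025 genes in the table. CCGGAAG (the ETS motif that GABP binds) was in 16, or 23.2%, against 9.93%, and AAGATGGCG (the YY1 motif) in 7, or 10.1%, against 1.64%. At least 1 of them was in 25 members, or 36.2%, against 12.1% of all genes, and no motif holds another, though the last letters of the ETS motif are the first of the YY1 motif. The median log2 fold change for IL-1b-treated against cultured cells was 0.42 for the 25 tested members with a motif, of which 21 rose. It was 0.49 for the 41 without, of which 31 rose, where 15.6% of all genes were called higher. This is a description with no test. The 200 bases before the RefSeq start are shown for Uqcrh and Sdhd, which rose in every comparison, and for Cox6a1, which did not, with matches in capitals (CTTCCGG is the ETS motif on the other strand).
Uqcrh (chr4:116075071-116075270, minus strand): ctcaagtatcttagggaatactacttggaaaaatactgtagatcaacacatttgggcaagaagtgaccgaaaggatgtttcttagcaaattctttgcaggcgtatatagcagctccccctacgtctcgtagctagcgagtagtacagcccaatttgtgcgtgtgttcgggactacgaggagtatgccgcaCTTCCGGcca
Sdhd (chr9:50603850-50604049, minus strand): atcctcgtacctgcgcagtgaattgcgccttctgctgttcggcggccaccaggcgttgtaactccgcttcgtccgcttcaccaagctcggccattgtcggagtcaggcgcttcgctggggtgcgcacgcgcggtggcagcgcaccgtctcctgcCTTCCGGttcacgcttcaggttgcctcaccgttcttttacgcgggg
Cox6a1 (chr5:115348959-115349158, minus strand): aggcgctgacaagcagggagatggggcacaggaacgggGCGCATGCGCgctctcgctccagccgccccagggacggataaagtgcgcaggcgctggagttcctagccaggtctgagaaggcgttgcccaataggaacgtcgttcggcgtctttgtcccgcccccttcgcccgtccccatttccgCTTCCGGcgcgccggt
All 3 are among the 16 members with the ETS motif, and Cox6a1 is also among the 5 with the NRF1 motif. As only members with a motif are shown, these windows cannot show whether a motif goes with the direction of the gene.

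Genes that build the chain moved in part. Of 23 tested complex IV assembly factors 9 rose and 1 fell in IL-1b-treated against cultured cells, and 13 rose and 4 fell in cultured against fresh cells. Among all genes 15.6% were higher and 13.3% lower in the first comparison and 29.4% higher and 28.9% lower in the second, the shares to set beside the counts of this and the next lists. Coa6, which helps to place copper, rose most clearly with IL-1b (18.9 ± 1.53 CPM in IL-1b-treated and 9.79 ± 0.529 CPM in cultured cells, SD, n = 3 each; 0.95 ± 0.13, adjusted p = 7.9e-06). Cox17, the copper chaperone, rose most clearly in culture (52.9 ± 2.97 CPM in cultured and 29.6 ± 1.15 CPM in fresh cells; 0.84 ± 0.07). The heme A enzymes Cox15 and Cox10 fell, Cox15 in cultured against fresh cells (-0.73 ± 0.12) and Cox10 in IL-1b-treated against fresh cells (13.9 ± 2.0 CPM against 28.1 ± 0.686 CPM; -1.02 ± 0.13, adjusted p = 5.05e-07). Of 15 tested complex I assembly factors 4 rose and 0 fell with IL-1b, led by Ndufaf8 (0.66 ± 0.16; 0.03 and no call on the TPM scale), and 5 rose and 3 fell in culture, a share of higher genes near that among all genes. Of 4 complex II assembly factors 1 rose with IL-1b (Sdhaf4, 0.62 ± 0.16; 0.25 in TPM and 0.31 on the corrected scale, not called in either) and 1 fell in culture (Sdhaf1, -0.83 ± 0.12). Of 7 in the list of complex III assembly factors and Cyc1, 2 rose with IL-1b, among them Uqcc3 (0.45 ± 0.07, with 0.12 and no call in TPM). In culture 1 of the 7, Uqcc3, rose (0.89 ± 0.08) and 2 fell. In TPM 2 complex IV factors rose and 5 fell with IL-1b and 0 complex I factors rose and 2 fell. In culture the complex IV factors had 6 higher and 5 lower in TPM and 7 higher and 7 lower on the corrected scale, and the complex I factors 0 and 4 in TPM and 4 and 4 on the corrected scale. Among all genes 2.22% were higher and 34.3% lower in TPM with IL-1b, and 14.4% and 36.7% in culture. On the corrected scale 29.4% were higher and 25.0% lower in culture. With IL-1b 4 complex IV factors rose and 1 fell on the corrected scale, and 3 complex I factors rose and 0 fell. Among all genes 14.8% were higher and 4.58% lower there. The split of calls in these lists thus depended on the scale, and that of all genes also moved toward lower calls in TPM.

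Atpif1, the protein that stops complex V from burning ATP, rose in both steps on the count scale. It averaged 24.0 ± 2.83 CPM in IL-1b-treated and 15.1 ± 1.64 CPM in cultured cells (0.67 ± 0.13, adjusted p = 0.000385), and cultured cells stood above fresh cells at 5.42 ± 0.809 CPM (1.46 ± 0.14, adjusted p = 1.05e-08; SD, n = 3 each). With IL-1b it was 0.33 and not called in TPM (adjusted p = 0.0523). Its list of 6 had 1 gene higher and 1 lower with IL-1b and 1 higher and 2 lower in culture. The gene lower with IL-1b was Foxred2 (-0.38 ± 0.14, adjusted p = 0.0454), called in TPM too (-0.69) but not on the corrected scale (-0.18). Foxred2 is not an established complex V gene, so its fall should not be read as one of complex V assembly. Cytochrome c (Cycs), the carrier between complexes III and IV, rose by 0.42 ± 0.08 with IL-1b and by 0.67 ± 0.08 in culture, with 0.08 and no call for the first in TPM (adjusted p = 0.63). Of its list of 15, mostly enzymes of coenzyme Q synthesis, 1 rose and 1 fell with IL-1b and 2 rose and 5 fell in culture, where 29.4% of all genes were higher and 28.9% lower.

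Carriers and import genes were more often higher than lower on the count scale, where 15.6% of all genes were higher and 13.3% lower with IL-1b and 29.4% higher and 28.9% lower in culture. Of 6 tested ADP/ATP carriers, porins and the phosphate carrier 4 rose and 1 fell with IL-1b and 6 rose in culture. Slc25a5, an ADP/ATP carrier, averaged 338 ± 8.62 CPM in IL-1b-treated and 251 ± 3.22 CPM in cultured cells (0.43 ± 0.03). Slc25a3, the phosphate carrier, was the one that fell (474 ± 14.6 CPM in IL-1b-treated and 516 ± 11.4 CPM in cultured cells; -0.12 ± 0.03, adjusted p = 0.00394). Of 25 genes of protein import and cristae 14 rose and 1 (Phb2) fell with IL-1b, and 15 rose and 3 fell in culture. Of 20 citric acid cycle genes 11 rose and 1 fell with IL-1b, and 11 rose and 3 fell in culture. Ogdh, the oxoglutarate dehydrogenase, fell in both, with 113 ± 10.6 CPM in IL-1b-treated, 142 ± 1.65 CPM in cultured and 225 ± 3.62 CPM in fresh cells (-0.33 ± 0.05 and -0.66 ± 0.05). On the TPM scale 0 of the citric acid cycle genes rose and 5 fell with IL-1b, and 3 rose and 6 fell among the import genes. Among the carriers 1 rose and 2 fell, where 2.22% of all genes were higher and 34.3% lower. On the corrected scale 10 citric acid cycle genes rose and 1 fell with IL-1b. There 9 import genes rose and 1 fell, and 3 carriers rose and 1 fell (14.8% of all genes higher, 4.58% lower). The split of calls in these 3 lists in that comparison thus turned on the TPM scale, where that of all genes also moved toward lower calls. It kept its direction on the corrected scale.

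Of 11 tested regulators of mitochondrial biogenesis 0 rose and 5 fell with IL-1b (15.6% of all genes higher, 13.3% lower), and 1 rose and 7 fell in culture (29.4% higher, 28.9% lower). Pprc1, a coactivator of the PGC-1 family, averaged 60.6 ± 4.72 CPM in IL-1b-treated and 77.5 ± 3.61 CPM in cultured cells (-0.35 ± 0.06, adjusted p = 0.000105; -0.14 and no call on the corrected scale), and Myc was the gene that rose in culture (0.45 ± 0.05). On the corrected scale 1 of these regulators fell with IL-1b and 5 in culture, where 4.58% and 25.0% of all genes were lower. Polrmt, the mitochondrial RNA polymerase, averaged 28.1 ± 1.32 CPM in IL-1b-treated, 36.8 ± 3.06 CPM in cultured and 53.2 ± 2.52 CPM in fresh cells (-0.39 ± 0.08, adjusted p = 0.00101, and -0.53 ± 0.08, adjusted p = 4.43e-06). Neither difference was called on the corrected scale (-0.23, adjusted p = 0.0684, and -0.16, adjusted p = 0.111). In its list of 28 genes of mitochondrial transcription and RNA handling 6 rose and 2 fell with IL-1b. In TPM 0 rose and 9 fell, where 2.22% of all genes were higher and 34.3% lower. In culture 7 of the 28 rose and 8 fell, near the shares among all genes. Rexo2, which degrades short RNAs, rose most clearly in culture (150.0 ± 5.57 CPM in cultured and 48.2 ± 5.83 CPM in fresh cells; 1.63 ± 0.06). Polg, the mitochondrial DNA polymerase, averaged 90.6 ± 1.87 CPM in IL-1b-treated, 107 ± 6.02 CPM in cultured and 223 ± 4.08 CPM in fresh cells (-0.24 ± 0.05 and -1.06 ± 0.04). The first was -0.06 and not called on the corrected scale (adjusted p = 0.42). Of its list of 11 DNA maintenance genes 1 rose and 1 fell with IL-1b and 2 rose and 3 fell in culture.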

How the data were processed

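The submitters' processing notes name STAR, RSEM and mm10, without versions or a strand setting, so overlapping antisense genes may not be separated. Per the labels' protocols the library kit was directional (NEBNext Ultra II) and selected polyadenylated RNA. The deposited tables hold RSEM expected counts per gene, per the file headers, which divide reads among matching genes. The authors also deposited TPM values and FPKM values made by RSEM; FPKM was not used. Lengths are the effective lengths of the deposited tables. Here expected counts were rounded to whole numbers. Symbols, coordinates and transcripts came from GENCODE M21 (GRCm38, the assembly of mm10), with a symbol for 99.53% of identifiers.

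The test was the quasi-likelihood F test of edgeR 4.0.16 in R 4.3.3, with TMM scaling, the filterByExpr filter and 1 fit of all 9 libraries on group, with Benjamini-Hochberg adjustment over 13043 genes and a threshold of 0.05. TPM was tested as log2(TPM + 0.5) with limma 3.58.1 on the same genes; such fold changes understate those of low genes. For the corrected scale, a smooth trend on GC content and length was fitted per library with mgcv 1.9.3 and used as an offset. Pseudogene copies were transcripts matching a member on the same strand in BLAST 2.17.0+ at 95% identity or more over at least 100 bases and 50% of the shorter transcript. Alternatives were other scalings, no filter, DESeq2 1.42.0, limma-voom, pseudocounts of 1 and 0.1, an effective length offset, fits of the 2 groups compared, a replicate block, copies added, mitochondrial genes left out of the totals, and each library left out. Scripts were tested on simulated data. Python 3.11.15 with pandas 2.3.3, numpy 2.4.6 and matplotlib 3.10.9 was used.

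Named by rule were all mitochondrial members, fixed core subunits, paralogue families, the largest called change each way in each complex and comparison, and the gene of smallest adjusted p each way in other lists. Values of 1 fixed subunit are not reported here. The members and lists were chosen with earlier results of these data known.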

Additional observations from a re-analysis of the deposited data

How the results depend on the processing

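Counts of called genes kept within 1.5 times of those reported under most alternatives, and those that did not are given here. In IL-1b-treated against cultured cells, 28 nuclear genes were higher and 10 lower on the TPM scale at each pseudocount, 1 nuclear gene was lower with RLE, upper quartile or library size scaling, no filter, DESeq2 or voom, and 4 mitochondrial genes were higher on the TPM scale. In cultured against fresh cells, 7 nuclear genes were lower on the TPM scale and on the scale corrected for GC content and length and 0 with the effective length offset, 5 mitochondrial genes were higher and 5 lower on the corrected scale, and 1 mitochondrial gene was lower with library size scaling, no filter or TPM. In IL-1b-treated against fresh cells, 17 nuclear genes were lower on the TPM scale, 8 on the corrected scale and 1 with no filter, the effective length offset or only the groups compared, and 1 mitochondrial gene was lower on the corrected scale. Leaving out each library in turn gave, with IL-1b against cultured cells, 58 to 62 nuclear genes higher and 0 to 1 lower and 12 to 13 mitochondrial ones higher; in cultured against fresh cells 55 to 59 and 0 to 3 nuclear and 10 to 11 and 0 to 1 mitochondrial; and in IL-1b-treated against fresh cells 66 to 69 and 1 to 2 nuclear and 13 mitochondrial. Same-numbered libraries did not deviate together over all tested genes (correlations of -0.022 to 0.019). That check cannot exclude a pairing, as count noise may hide it, and the labels do not say what the replicates are. With a replicate block the nuclear counts were 60 higher and 0 lower, 59 and 3, and 69 and 2 in the 3 comparisons. On the TPM scale, which was not TMM-scaled, the median of all genes was -0.28 with IL-1b against cultured cells. It was -0.50 in IL-1b-treated against fresh cells and -0.21 in cultured against fresh cells. The signs of these genes turned on that scale. With IL-1b against cultured cells they were Atp5a1 -0.29, Atp5b -0.19, Atp5g3 -0.09, Cox4i1 -0.17, Cox6a1 -0.06, Cox8a -0.00, Ndufs1 -0.08, Ndufv1 -0.17, Sdha -0.24, Uqcrfs1 -0.05, mt-Nd4 -0.04, mt-Nd5 -0.02 and mt-Nd6 -0.01. In IL-1b-treated against fresh cells they were Atp5b -0.40, Atp5g1 -0.23 (-0.22 with a pseudocount of 1), Atp5g3 -0.06, Cox4i1 -0.36, Cox5a -0.15, Cox6a1 -0.53, Ndufs1 -0.16, Ndufv1 -0.43 (-0.42), Sdha -0.39 (-0.38), Uqcrfs1 -0.05 and mt-Co2 -0.07, and in cultured against fresh cells Atp5b -0.21, Cox4i1 -0.20, Cox5a -0.02, Ndufs1 -0.08, Uqcrfs1 -0.01 and mt-Co2 -0.09. On the corrected scale, signs turned for Atp5g3 (-0.03) with IL-1b, for Atp5a1 (0.13), Atp5b (-0.12), Atp5g1 (-0.25), Atp5g3 (-0.19), Cox5a (-0.35), mt-Co2 (-0.30) and mt-Nd4l (-0.02) in IL-1b-treated against fresh cells, and for Atp5a1 (0.01), Atp5b (-0.15), Atp5g1 (-0.23), Atp5g3 (-0.16), Cox5a (-0.26), mt-Atp6 (-0.53), mt-Atp8 (-0.67), mt-Co2 (-0.38), mt-Nd2 (-0.08) and mt-Nd4 (-0.01) in cultured against fresh cells. Library size scaling turned Atp5b (-0.00) and Sdha (-0.07) in IL-1b-treated against fresh cells, and adding the copy turned mt-Co3 (0.53) in cultured against fresh cells. The cause was not tested. Depth limits the low genes, of which Cox6b2 is the one named with a call.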
